A study of Rattus norvegicus with 2 samples.

Results

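The proteins of the cytosolic ribosome were read in control and sorted YB2/0 cells by 185 of the 54613 probe sets on the array, those left after 62 Affymetrix control probe sets were set aside. A probe set was a member if any gene symbol in the array's annotation followed the names of ribosomal proteins (RPL or RPS with a number, and the P stalk and RPSA symbols). The naming rule uses no measured value, though it was set with earlier results of these data known. The members carry 74 of the 21357 gene symbols of the array, 48 of the large and 26 of the small subunit. Of the 185 probe sets, 120 have 1 gene symbol, 68 of the large and 52 of the small subunit. The other 65 have several symbols, 53 with a large and 12 with a small subunit gene among them. These are given by their ID with all their symbols and kept apart. RPLP0, RPSA and RPL26 were not analysed here.

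YB2/0 is a rat myeloma cell line, a tumour line of antibody-secreting B lineage cells. The study introduced a cDNA library of human umbilical vein endothelial cells (HUVECs) into it by retrovirus, and cells binding IgG of patients with Takayasu arteritis were sorted over several rounds. Control cells were rat myeloma cells, untransfected according to the study, and the other sample is labelled sorted. The study writes of cloned cells, and the serum or clone behind the sorted sample was not stated. Both samples came from conventional culture without treatment, and biotin-labelled RNA of each was hybridised to 1 array. The probe sets are named for human genes, so a rat transcript is read only as far as it binds human probes, and a rat transcript cannot be told apart from that of an inserted human cDNA.

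Each condition had 1 array, so no spread between replicates was available and differences between the arrays were not tested. Each value is a MAS5 signal, a linear intensity, and its detection was called Present, Marginal or Absent by the authors. Both arrays had a trimmed mean signal of 500.0. The hybridisation spikes, added in fixed amounts, had log2 ratios of sorted over control signal from -0.58 to 0.57 over 18 probe sets. Markers could not settle the labelled cell type, since a missing Present call on human-named probes gives no level of the rat gene. Of 9 plasma cell genes, 2 were Present on an array. Of their 17 probe sets 17.6% were Present in control and 5.88% in sorted cells, against 8.93% and 8.24% of all probe sets. SDC1, the surface syndecan of plasma cells, had a signal of 3390 in control and 4206 in sorted cells, Present in both, and PRDM1 was Present in control cells only. XBP1, IRF4, CD79A, JCHAIN, TNFRSF17, MZB1 and CD38 were not Present. The summed signal of the 17 plasma cell probe sets was 15690 in control and 14380 in sorted cells. Of 7 endothelial genes, ERG alone was Present, in sorted cells with a signal of 684 against 439 in control cells, and VWF, PECAM1 and CDH5 were not. No T cell or macrophage marker was Present.

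A ribosome is built from a small subunit, which holds the mRNA and checks codon against anticodon, and a large subunit, which joins amino acids and releases the chain through an exit tunnel. Its proteins are made in matched amounts and assembled on ribosomal RNA in the nucleolus, and surplus protein is degraded. The mRNAs of vertebrate ribosomal proteins typically begin with a tract of pyrimidines after a cap-site C, the 5′ terminal oligopyrimidine (TOP) motif, through which mTOR signalling sets their translation. Many of these genes also host small nucleolar RNAs (snoRNAs) in their introns. For this reason 56 of the 65 multi-gene probe sets carry a snoRNA symbol. In 49 of the 65 all further symbols are snoRNAs or microRNAs.

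Start regions are printed for 7 genes with a probe set past 2-fold and for 4 genes with bright probe sets, with and without the pyrimidine tract, to show a feature that the array data do not hold. RefSeq promoters of the rat build GRCr8, with 250 bases before and 50 bases after the annotated start, were matched by symbol for 63 of the 74 genes. Each line gives 25 bases before and 15 bases after the start, 5′ to 3′ on the gene's strand, with the longest pyrimidine run within 10 bases of the start in capitals. Rps10 lies at chr20:5700730-5700769 (minus strand), Rps18 at chr20:4933720-4933759 (plus), Rpl37 at chr2:55942920-55942959 (plus), Rps2 at chr10:14251823-14251862 (plus) and Rpl35 at chr3:43165907-43165946 (minus). Rpl5 lies at chr14:1995211-1995250 (minus), Rps16 at chr1:92770633-92770672 (plus), Rpl31 at chr9:49143086-49143125 (plus) and Rps27 at chr2:177964592-177964631 (minus). Rpl11 at chr5:153560788-153560827 (minus) and Rps12 at chr1:23500050-23500089 (plus) are bright ones with short runs, as are Rps19 and Rps4x, which are not printed.
Rps10: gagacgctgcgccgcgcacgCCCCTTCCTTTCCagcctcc
Rps18: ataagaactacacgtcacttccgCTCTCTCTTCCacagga
Rpl37: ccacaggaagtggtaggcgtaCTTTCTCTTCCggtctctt
Rps2: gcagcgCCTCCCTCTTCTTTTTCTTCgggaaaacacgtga
Rpl35: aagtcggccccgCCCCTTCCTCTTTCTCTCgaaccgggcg
Rpl5: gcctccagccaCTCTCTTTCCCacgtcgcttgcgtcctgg
Rps16: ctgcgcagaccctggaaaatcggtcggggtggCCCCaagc
Rpl31: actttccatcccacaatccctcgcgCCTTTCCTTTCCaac
Rps27: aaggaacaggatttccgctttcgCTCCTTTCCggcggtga
Rpl11: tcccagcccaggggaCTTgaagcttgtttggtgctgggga
Rps12: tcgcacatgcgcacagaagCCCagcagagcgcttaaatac

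The longest pyrimidine run at the start had a median of 10 bases over the 63 promoters, against 4 bases over all 33469 rat promoters in the table. A run of 6 or more bases was found in 48 of the 63 (76.2%) and in 28.3% of all promoters. A C followed by at least 4 pyrimidines exactly at the annotated start was found in 23 (36.5%), against 2.63% of all. The motif CTTTCC, which overlaps such runs, was found on either strand in 29 (46.0%), against 26.4%. The ETS factor motif CCGGAAG on either strand was found in 20 (31.7%) against 8.75%, and the YY1 motif AAGATGGC in 5 (7.94%) against 3.17%. Of 11 matched genes with a probe set that differed by 2-fold or more, 10 had a run of 6 or more bases (90.9%), all but Rps16, and the median run was 13 bases. Among 39 genes with probe sets Present on both arrays and none past 2-fold, 30 had one (76.9%), and the median run was 10 bases. The ETS motif was found in 6 of the 11 (54.5%) and in 10 of the 39 (25.6%). These differences were not tested. These are letters near annotated starts, and neither transcription nor translation was measured through them.

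Ribosomal protein probe sets were called Present far more often than the array as a whole. In control cells 97 of 185 (52.4%) were Present, against 8.93% of all probe sets, and in sorted cells 96 (51.9%), against 8.24%. Both arrays called 89 Present (48.1%), against 4.68% of all. A further 8 were Present in control cells only, 7 in sorted cells only and 81 on neither. By class, Present on both arrays were 30 of 68 single-gene large subunit, 23 of 52 single-gene small subunit, 27 of 53 multi-gene large subunit and 9 of 12 multi-gene small subunit probe sets.

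Detection followed the kind of probe set as well as the gene. Probe sets ending in _at are designed for 1 gene, those ending in _s_at can match several transcripts, and some probes of those ending in _x_at can bind further sequences. Of 62 members ending in _at, 14 were Present on both arrays (22.6%, against 3.2% of all with that ending). Of 51 members ending in _s_at, 30 were (58.8%, against 8.18%), and of 72 ending in _x_at, 45 were (62.5%, against 9.01%). The members exceeded the array within each ending, and members ending in _at were detected least often.

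**Figure D1:**
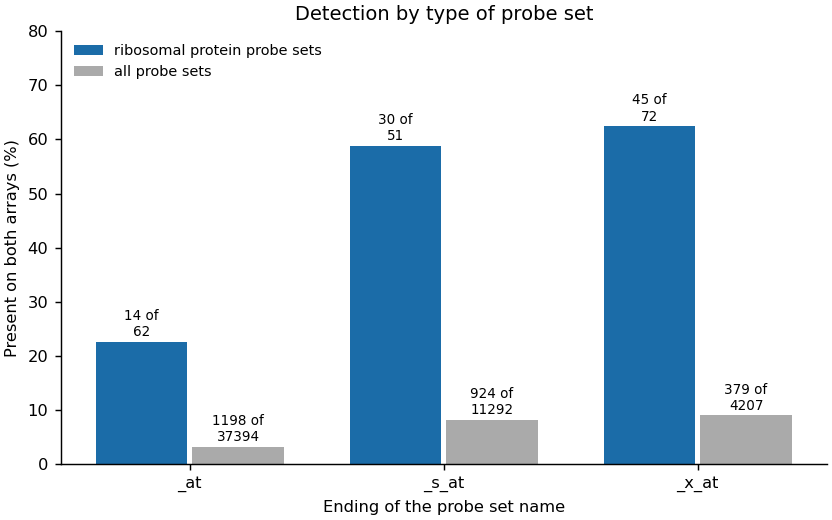
Percentage of probe sets Present on both arrays (y axis) by the ending of the probe set name (x axis), for ribosomal protein probe sets (blue) and all probe sets (grey), with the counts above the bars. The blue bar exceeds the grey bar for each ending, and the lowest blue bar is that of _at, at 22.6%.

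Seen by gene, 63 of 74 had a probe set Present on at least 1 array, 39 of the large and 24 of the small subunit. For 59 genes a probe set was Present on both. No probe set was Present for RPL10L, RPL22, RPL28, RPL29, RPL36A, RPL39, RPL39L, RPL3L, RPL41, RPS24 and RPS28. An Absent call on human-named probes gives no level of the rat gene. Absent did not always mean dim, since 15 members Absent on both arrays had signals of 1000 or more on both. RPL22, a protein on the outer face of the large subunit, had signals of 26732 and 44987 in control and sorted cells at 208768_x_at, with detection p-values of 0.246 and 0.219.

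The signals of the 2 arrays lay close together for most of the family. Of the 89 probe sets Present on both, 77 (86.5%) were within 2-fold, against 2288 of 2556 (89.5%) over the whole array. Their median log2 ratio of sorted over control signal was -0.02 (SD 0.80 over probe sets), with 43 above 0 and 46 below. Over all probe sets Present on both arrays the median was 0.11 (SD 0.67). Signals of the 89 ran from 986 to 629944 in control cells and from 1414 to 811012 in sorted cells. Centring subtracts a constant from each ratio, 0.11 when centred on all probe sets Present on both arrays, 0.24 on the hybridisation spikes and -0.48 on the polyA spikes, while quantile normalization moves each ratio by its own amount. Values are as deposited unless said otherwise.

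**Figure D2:**
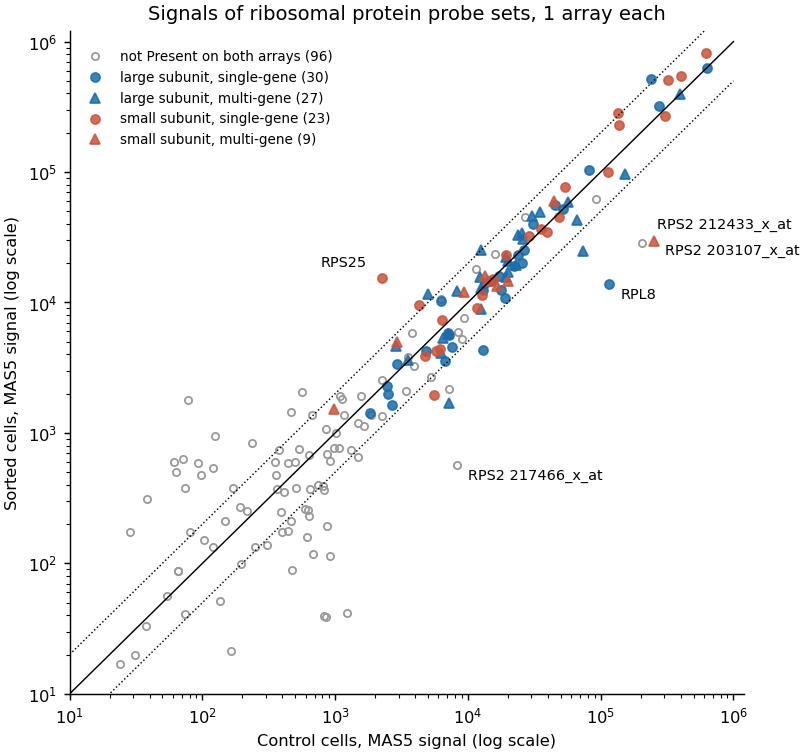
MAS5 signal in sorted cells (y axis) against control cells (x axis), both log scales, for the 185 ribosomal protein probe sets, with 1 array per condition. Points on the solid line have the same signal on both arrays, dotted lines lie 2-fold from it, colour gives the subunit and shape the class for probe sets Present on both arrays, and open grey points are the 96 others. Most coloured points lie between the dotted lines, RPS25 lies above them, and RPL8 and the probe sets of SNORA64;RPS2 (written RPS2) lie below.

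Higher means from here on a sorted over control ratio of at least 2 with a Present call in sorted cells, and lower a ratio of at most 1/2 with a Present call in control cells. By this rule 6 of 185 members were higher, against 1.61% of all probe sets, and 10 were lower, against 1.77%. Because members were Present so often, the share among Present probe sets is the closer background. Of 96 members Present in sorted cells, 6 were higher (6.25%), against 19.5% of all probe sets Present there. Of 97 Present in control cells, 10 were lower (10.3%), against 19.8%. Among the 89 Present on both arrays 6 were higher (6.74%, against 6.34%) and 6 were lower (6.74%, against 4.15%). Among probe sets Present on both arrays the shares were thus near the background for higher and somewhat above it for lower ones, and shares this close are no result about the members. The 16 probe sets name 14 genes, 6 higher and 8 lower, and no gene was counted both ways.

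In the large subunit, the 30 single-gene probe sets Present on both arrays had a median log2 ratio of -0.10, from -3.08 to 1.11. Of these, 9 were above 0 and 21 below. The median was 0.38 when centred on the polyA spikes. Over gene-specific probe sets only, the few ending in _at, it was -0.51, which is the value of RPL34. Higher at 2-fold or more was 1, RPL37, and 3 of the 68 were lower. The lower ones were RPL8 and RPL35 with Present calls on both arrays and RPL35A with a Present call in control cells only. The higher one was 3.03% of the 33 Present in sorted cells, against 19.5% of all. The lower ones were 9.68% of the 31 Present in control cells, against 19.8% of all. Among the 30 Present on both arrays 3.33% were higher, against 6.34% of all such probe sets, and 6.67% were lower, against 4.15%. Shares of so few probe sets were not tested.

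RPL8 is the protein of the large subunit that reaches close to the peptidyl transferase centre. Its probe set 200936_at read 116397 in control and 13738 in sorted cells, both Present. The sorted signal was 8.47-fold lower (log2 ratio -3.08), the lowest ratio of any single-gene member Present on both arrays. RPL8 has no other probe set among the members, so the difference rests on 1 probe set. In bulk RNA a lower signal from fewer expressing cells and from less RNA per cell cannot be told apart.

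RPL35 sits beside the mouth of the exit tunnel, where the signal recognition particle and other factors meet the new chain. At 200002_at its signal was 12954 in control and 4297 in sorted cells, a log2 ratio of -1.59. RPL35A, an unrelated protein despite its name and a gene mutated in Diamond-Blackfan anaemia, gave unequal readings at its 3 detected probe sets. At 215249_at the signal was 682 and Present in control cells and 118 and Absent in sorted cells, at least 4.28-fold lower when the sorted signal is set to the lowest Present signal of that array, 159. The much brighter 213687_s_at read 26618 and 25232 (log2 ratio -0.08), and 225190_x_at read 25344 and 20219 (-0.33). For RPL35A, then, the bright probe sets were near equal and the dim one differed.

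RPL37, a zinc-binding protein of the large subunit, had a signal of 238391 in control and 514953 in sorted cells at 200092_s_at, a log2 ratio of 1.11. This was the highest ratio among the single-gene large subunit probe sets Present on both arrays. It was 0.75 with quantile normalization and 0.87 when centred on the hybridisation spikes, both under 2-fold.

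Ranked by the mean log2 signal of both arrays, the 5 brightest single-gene probe sets of the large subunit were RPL37 and 4 with similar signals on both arrays. By the control signal alone RPL8 would rank above RPL11 and RPL32, which are among these 4. RPL31, at the rim of the exit tunnel, read 629944 in control and 632805 in sorted cells at 200963_x_at (log2 ratio 0.01). RPLP1, an acidic protein of the P stalk that recruits elongation factors, read 276684 and 323176 at 200763_s_at (0.22). RPL32 read 52280 and 51974 at 200674_s_at (-0.01). RPL11, which with RPL5 and the 5S RNA forms a particle that can bind MDM2, read 81675 and 103232 at 200010_at (0.34). Among these 4, the widest ratio was that of RPL11.

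Next in order after the counted probe sets came values inside 2-fold. RPL23A, at the tunnel exit, read 6662 in control and 3590 in sorted cells at 203012_x_at (log2 ratio -0.89), the closest to the lower limit from inside. RPL18 read 18905 and 10813 at 200022_at (-0.81), and RPL9, a stalk-base neighbour, read 2698 and 1647 at 200032_s_at (-0.71). On the other side RPL10A, of the stalk known as L1, read 6262 and 10256 at 229563_s_at (0.71). These lay further from 0 than most members but not past the rule. RPL12, at the base of the P stalk, was Present on both arrays at 200809_x_at with 30835 and 40286 (0.39) and in sorted cells only at 214271_x_at, with 11428 and 17946 (0.65).

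In the small subunit, the 23 single-gene probe sets Present on both arrays had a median log2 ratio of 0.05, from -1.49 to 2.77, with 12 above 0 and 11 below. The side of 0 on which this median fell depended on the processing, with -0.19 when centred on the hybridisation spikes and 0.52 when centred on the polyA spikes. Over gene-specific probe sets only, those ending in _at, it was -0.36, which is the value of RPS29. Over both subunits only 12 such single-gene members were Present on both arrays. Higher at 2-fold or more were 3, RPS25, RPS10 and RPS18, and 1 was lower, RPS16. The higher ones were 11.5% of the 26 Present in sorted cells, against 19.5% of all. The lower one was 3.70% of the 27 Present in control cells, against 19.8% of all. Among the 23 Present on both arrays 13.0% were higher, against 6.34% of all such probe sets, and 4.35% were lower, against 4.15%. The higher share thus lay below or above the background with the choice of background, and it was not tested.

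RPS25, a protein of the head of the small subunit that is needed for translation from several viral internal ribosome entry sites, had the highest ratio of the family among probe sets Present on both arrays. At 200091_s_at its signal was 2242 in control and 15318 in sorted cells, 6.83-fold higher (log2 ratio 2.77). Only this 1 probe set reads RPS25, so there is no second reading. It stayed above 2-fold under each scaling tried, between 2.54 and 3.25.

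RPS10, near the mRNA entry and a target of ubiquitin ligation on stalled ribosomes, was read by 3 probe sets Present on both arrays. The dimmest, 200095_x_at, had 4274 in control and 9586 in sorted cells (log2 ratio 1.17). The brighter 200817_x_at had 35682 and 36813 (0.05), and 211542_x_at had 19495 and 23275 (0.26). All 3 lay above 0, but only the dimmest passed 2-fold.

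RPS18, in the head beside the tRNA of the P site, read 135476 in control and 281561 in sorted cells at 201049_s_at (log2 ratio 1.06), the closest of the counted single-gene probe sets to the limit. Centred on all probe sets Present on both arrays its ratio was 0.95, under 2-fold. RPS21 lay just outside, with 137736 and 228798 at 200834_s_at (0.73).

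RPS16, whose tail also reaches the tRNA of the P site, had 5514 in control and 1968 in sorted cells at 201258_at (log2 ratio -1.49). Its second probe set, 213890_x_at, had 12779 and 11314 (-0.18). A further one, 226131_s_at, went the other way, with 1570, Present, and 1904, Absent (0.28). The difference was therefore seen at 1 of 3 detected probe sets.

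**Figure D3:**
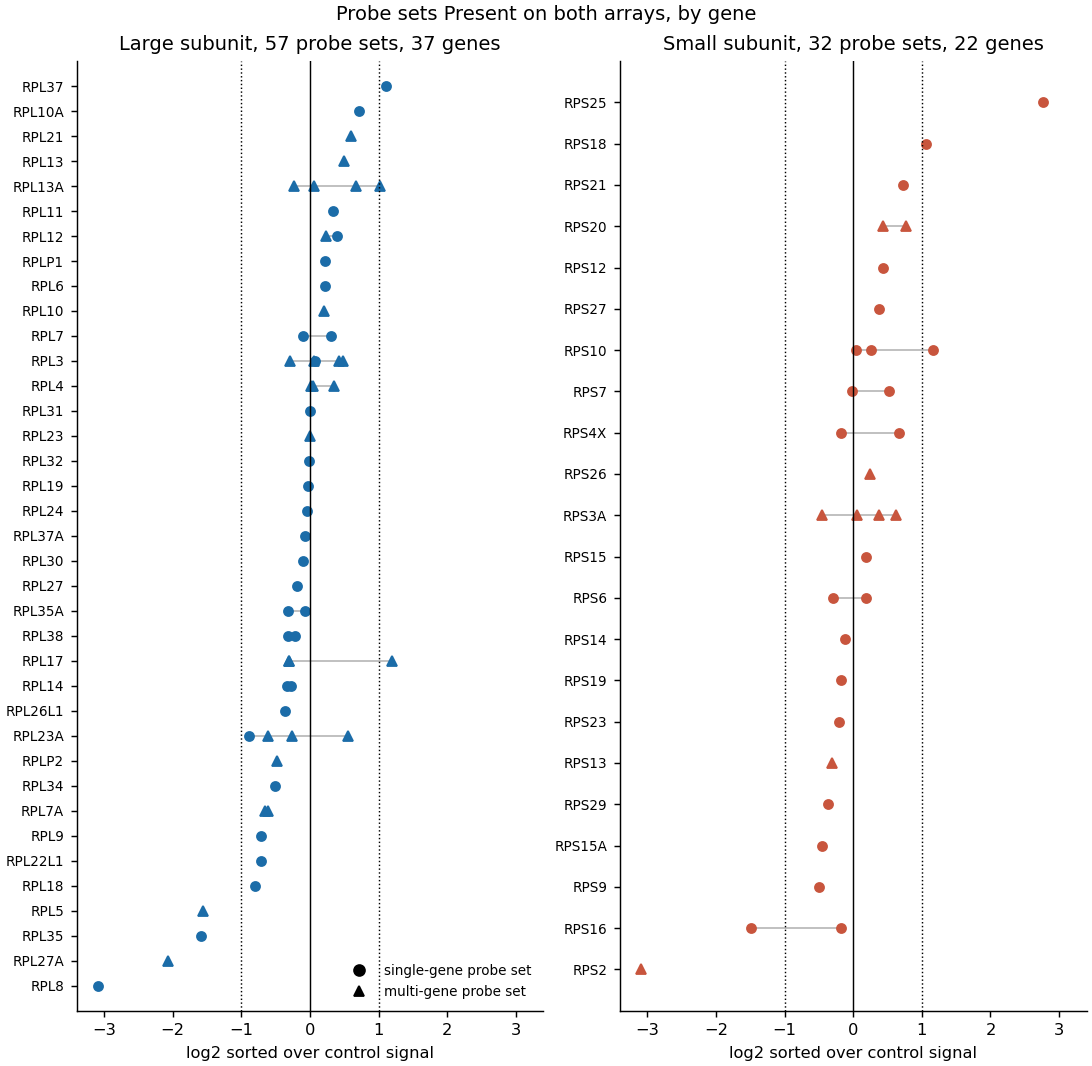
Log2 ratio of sorted over control signal (x axis) of the 89 probe sets Present on both arrays, by gene (rows), for the large (left) and the small subunit (right). Circles are single-gene and triangles multi-gene probe sets, grey lines join probe sets of the same gene, dotted lines mark 2-fold, and multi-gene probe sets stand at their ribosomal protein symbol. Most genes lie between the dotted lines, with RPS25 at 2.77 highest and RPS2 at -3.09 lowest.

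Besides RPS18, 4 probe sets made up the 5 brightest single-gene ones of the small subunit by the mean log2 signal of both arrays, and these 4 lay inside 2-fold. The order of brightness is a property of the probes as well as of the transcripts. RPS27, a zinc-finger protein, read 623399 in control and 811012 in sorted cells at 200741_s_at (log2 ratio 0.38), the brightest signal of the family in sorted cells. RPS12 read 400996 and 541507 at 213377_x_at (0.43). RPS4X, an X-linked protein of the subunit's body, read 319410 and 508478 at 200933_x_at (0.67), while its 213347_x_at read 39417 and 34959 (-0.17). RPS19, the gene most often mutated in Diamond-Blackfan anaemia, read 303360 and 268468 at 213414_s_at (-0.18).

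The lower end of the small subunit held RPS9, RPS15A and RPS29 besides RPS16. RPS9 read 6186 in control and 4378 in sorted cells at 217747_s_at (log2 ratio -0.50). RPS15A read 5762 and 4213 at 200781_s_at (-0.45). RPS29, a small zinc-binding protein of the head, read 11629 and 9046 at 201094_at (-0.36). RPS3, which lines the mRNA entry channel, was Present in control cells with 8479 and Absent in sorted cells with 5988 at 208692_at (-0.50). A change of call did not need a large change of signal, and RPS14 at 214245_at was Present with 632 and Absent with 681.

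The 65 multi-gene probe sets each hold exactly 1 ribosomal protein symbol. Of these, 36 were Present on both arrays, with a median log2 ratio of 0.05, from -3.09 to 1.19, and 22 above 0. The median was 0.04 over the 27 of the large and 0.24 over the 9 of the small subunit. At 2-fold or more 2 were higher and 6 lower, and 3 of the lower ones share the symbols SNORA64 and RPS2. The higher ones were 5.41% of the 37 Present in sorted cells, against 19.5% of all Present there. The lower ones were 15.4% of the 39 Present in control cells, against 19.8%. Among the 36 Present on both arrays 5.56% were higher, against 6.34% of all such probe sets, and 8.33% were lower, against 4.15%.

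RPS2 lines the mRNA entry channel of the small subunit, and SNORA64 is a snoRNA of its introns. Probe set 203107_x_at (SNORA64;RPS2) had a signal of 253534 in control and 29745 in sorted cells, Present on both, 8.52-fold lower. Probe set 212433_x_at of the same symbols had 205628, Present, and 28431, Absent with a detection p-value of 0.112, 7.23-fold lower. Probe set 217466_x_at had 8294, Present, and 567, Absent with a detection p-value of 0.130, 14.6-fold lower. All probe sets of these symbols thus lay far lower in sorted cells, and this was the one gene with several probe sets counted. All 3 end in _x_at.

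Of the other lower probe sets, 203034_s_at (SNORA3A;RPL27A) had 7144 in control and 1704 in sorted cells (log2 ratio -2.07). Probe set 213080_x_at (RPL5;SNORD21) had 73455 and 24879 (-1.56). RPL5 is the partner of RPL11 in the 5S particle, and at 200937_s_at of the same symbols the order was the other way round, with 1119, Marginal, and 1809, Present (0.69). Probe set 216247_at (SNORD54;RPS20) had 803, Present, and 391, Absent, 2.05-fold lower. RPS20 is a protein of the head of the small subunit, and its symbols also held the highest ratio of the multi-gene small subunit probe sets, at 200949_x_at with 2928 and 4995 (0.77), while 214003_x_at had 44313 and 59581 (0.43). The RPL5 and RPS20 probe sets thus disagreed in direction.

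The higher multi-gene probe sets had other probe sets of the same ribosomal protein symbol beside them, most with ratios nearer to 0. Probe set 212537_x_at (RPL17-C18orf32;SNORD58C;C18orf32;SNORD58A;SNORD58B;RPL17) had 5046 in control and 11546 in sorted cells (log2 ratio 1.19), while 200038_s_at had a ratio of -0.30 and 212270_x_at of -0.31. RPL17 lines the exit tunnel. Probe set 200716_x_at (RPL13AP5;SNORD32A;SNORD33;SNORD34;SNORD35A;RPL13A) had 12565 and 25413 (1.02), while 210646_x_at had -0.24 and 212790_x_at 0.06. Probe set 200715_x_at (SNORD32A;SNORD33;SNORD34;SNORD35A;RPL13A) lay between these, with 2893 and 4607 (0.67). RPL13A is also known for a role outside the ribosome, as a silencer of inflammatory mRNAs. Among multi-gene probe sets inside 2-fold, 217740_x_at (SNORD24;SNORD36A;SNORD36B;RPL7A) read 151273 and 96247 (-0.65).

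Probe sets of the same gene give the only repeated reading within these arrays, though they share the sample and cannot stand in for replicates. Of the ribosomal protein genes, 18 had several probe sets Present on both arrays, 48 in all, and their log2 ratios varied within a gene with a pooled SD of 0.49. For other genes the value was 0.52, over 544 probe sets of 234 genes, which are single-gene probe sets only, whereas the 48 include multi-gene ones. For members Present on neither array it was 2.12, over 54 probe sets of 21 genes. In 14 of the 18 genes all such probe sets lay within 2-fold, and in 9 their ratios had opposite signs. The range within the gene reached 1 or more in 6 genes, RPL17, RPL23A, RPS16, RPL13A, RPS10 and RPS3A. Of the 14 genes with a counted probe set, 6 had another probe set Present on both arrays and within 2-fold, namely RPL13A, RPL17, RPL35A, RPS10, RPS16 and RPS20. The remaining 8 were RPL5, RPL8, RPL27A, RPL35, RPL37, RPS2, RPS18 and RPS25.

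**Figure D4:**
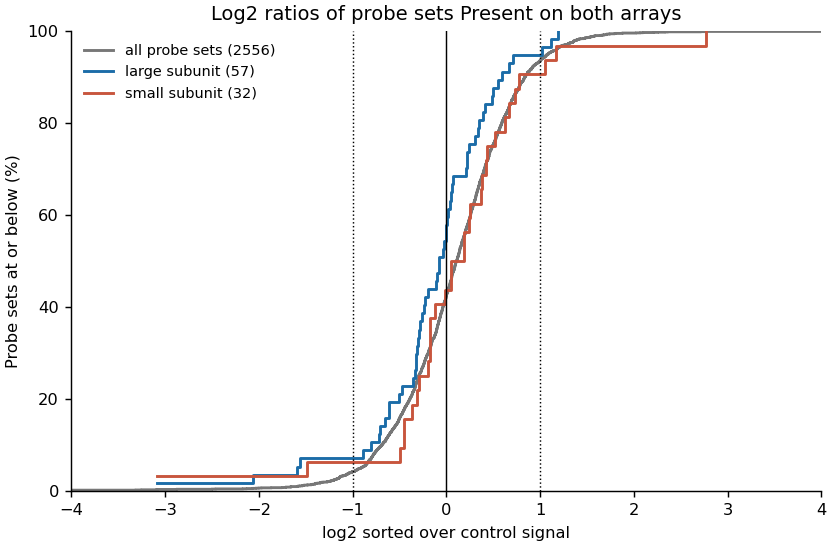
Cumulative percentage of probe sets (y axis) at or below a log2 ratio of sorted over control signal (x axis), for probe sets Present on both arrays, over all probe sets (grey, 2556), the large subunit (blue, 57) and the small subunit (red, 32), single-gene and multi-gene together. Dotted lines mark 2-fold. All 3 curves are steepest near 0, and the curves of the subunits begin near -3.

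Grouped by place in the ribosome, the single-gene probe sets gave few counts. The P stalk, which binds the GTPase factors, had 2 probe sets Present on both arrays, RPLP1 and RPL12, with none past 2-fold, and 200909_s_at (SNORA52;RPLP2) read 12450 and 8947 (log2 ratio -0.48). Of 12 probe sets of the exit tunnel, 4 were Present on both arrays, with a median of -0.46, and RPL35 alone was lower. That is 25% of the 4, against 4.15% of all probe sets Present on both arrays. It is also 25% of the 4 Present in control cells, against 19.8% of all. RPL19, of the same list, read 14851 in control and 14603 in sorted cells at 200029_at (-0.02). Of 19 probe sets of the mRNA channel and the head of the small subunit, 9 were Present on both arrays, with a median of 0.26. In that list 3 were higher, RPS10, RPS18 and RPS25, and none lower, while its multi-gene gene RPS2 stood at the bottom of the family. The 3 were 33.3% of the 9, against 6.34% of all probe sets Present on both arrays. They were 30.0% of the 10 Present in sorted cells, against 19.5% of all. The list was chosen with earlier results known, and the share of so few probe sets was not tested. Diamond-Blackfan anaemia is an inherited failure of red cell production. Of 17 single-gene probe sets of genes mutated in it, 1 was higher (RPS10) and 1 lower (RPL35A). The median of 9 Present on both arrays was 0.05. The higher one was 10% of the 10 Present in sorted cells, against 19.5% of all. The lower one was 10% of the 10 Present in control cells, against 19.8% of all. As shares of the 17, each was 5.88%, against 1.61% of all probe sets for higher and 1.77% for lower. Shares of so few probe sets from these lists were not tested.

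Paralogues of ribosomal proteins, most of them made in few tissues or at low levels, gave no count in either direction over 10 single-gene probe sets of 8 genes. RPL22L1 read 7549 in control and 4580 in sorted cells at 225541_at (log2 ratio -0.72). RPL26L1 read 1816 and 1414 at 218830_at (-0.36). RPL36AL, whose name falls outside the naming rule, read 109231 and 63988 at 207585_s_at (-0.77). These were the 3 paralogues Present on both arrays, and all lay below 0, except RPL26L1 when centred on the polyA spikes (0.12). RPS27L, a target of p53, was called in opposite order by its probe sets, with 439, Absent, and 586, Present, at 218007_s_at and with 511, Present, and 380, Absent, at 222487_s_at. RPL7L1 read 1008, Absent, and 992, Present, at 224738_x_at. RPL3L, of striated muscle, and RPL10L and RPL39L, of the testis, were Absent on both. FAU, whose product is cut into a ubiquitin-like protein and RPS30, read 64782 and 90636 at 200019_s_at (0.48).

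The machinery that assembles ribosomes was detected less often than the proteins it assembles, but more often than the array as a whole. Of 52 biogenesis genes listed, 44 had single-gene probe sets, 81 in all, and 18 genes were Present on an array. Of the 81, 18.5% were Present in control and 19.8% in sorted cells, against 8.93% and 8.24% of all probe sets. Both arrays called 12.3% Present, against 4.68% of all. The 10 probe sets Present on both arrays had a median log2 ratio of 0.56, with 8 above 0 and 2 below. Higher at 2-fold or more were 3 probe sets of 2 genes, and 2 genes were lower. The higher ones were 3.70% of the 81, against 1.61% of all probe sets, and the lower ones 2.47%, against 1.77%. Among those Present in sorted cells 18.8% were higher, against 19.5% of all. Among those Present in control cells 13.3% were lower, against 19.8% of all. POLR1B, the second-largest subunit of RNA polymerase I, read 350, Absent, in control and 1630, Present, in sorted cells at 220113_x_at. This was 4.66-fold higher, and the difference was at least 2.92-fold at 233341_s_at. IMP3, of the complex that processes small subunit RNA, read 3998 and 8335. NCL, the nucleolar protein nucleolin, read 2032, Present, and 920, Marginal (log2 ratio -1.14), and TAF1D, of the polymerase I selectivity factor, read 589, Present, and 71.2, Absent, at least 3.70-fold lower. The directions within this list were thus mixed.

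The mitochondrial ribosome, which is encoded by a separate set of nuclear genes, was mostly not detected, like most probe sets of the array. Of 76 genes listed, 74 had single-gene probe sets, 139 in all, and 13 genes were Present on an array, with 2 probe sets Present on both. Of the 139, 7.19% were Present in control and 4.32% in sorted cells, against 8.93% and 8.24% of all probe sets. Higher at 2-fold or more were MRPL4, with 355 and 1485, MRPL47, with 438 and 1200, and MRPS22, with 581 and 2079 at 226257_x_at, all Absent in control cells. MRPS22 read 1495 and 1510 at its other detected probe set, 219220_x_at, so these did not agree. MRPL51 was lower, with 1892, Present, and 507, Absent. MRPL19 was counted as lower with 245, Present, and 13.7, Absent, but against the lowest Present signal of the sorted array the difference was at least 1.54-fold. The higher ones were 2.16% of the 139, against 1.61% of all probe sets, and the lower ones 1.44%, against 1.77%. Among the 6 Present in sorted cells 50% were higher, against 19.5% of all. Among the 10 Present in control cells 20% were lower, against 19.8% of all. Shares of so few probe sets were not tested.

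**Figure D5:**
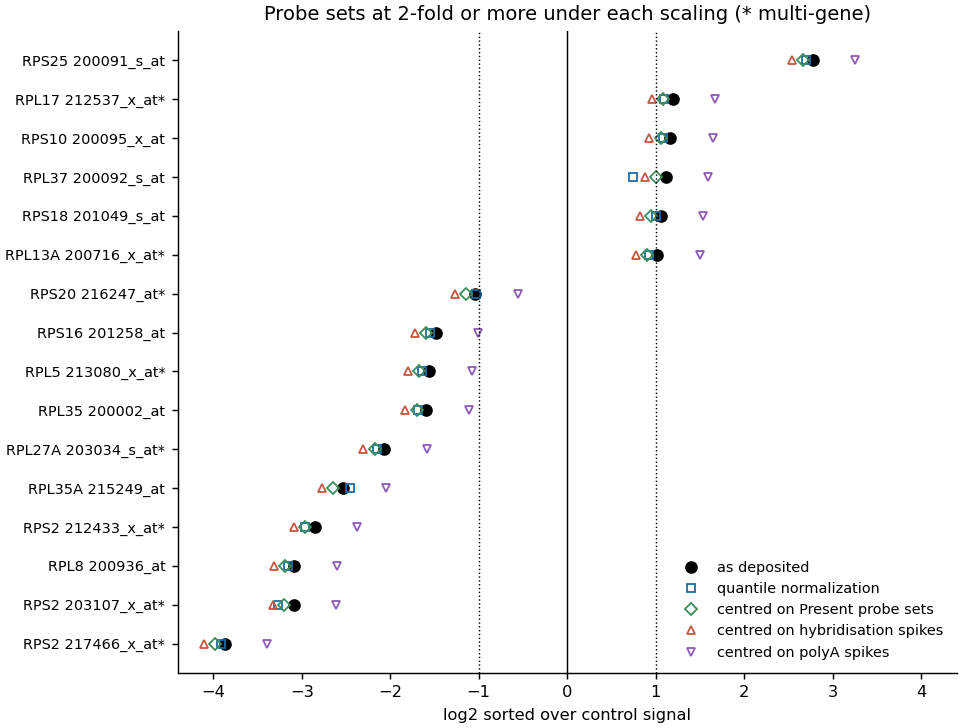
Log2 ratio of sorted over control signal (x axis) of the 16 member probe sets at 2-fold or more (rows, an asterisk marks multi-gene probe sets at their ribosomal protein symbol), as deposited and under 4 other scalings. Dotted lines mark 2-fold. RPS25 stays above and RPL8 and the RPS2 probe sets stay below 2-fold under each scaling, while the other higher probe sets fall to either side of the line.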

How the data were processed

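Total RNA of control and of sorted YB2/0 cells was hybridised to Affymetrix arrays, 1 array per condition. The deposited signal of a probe set is an intensity, computed by the authors by MAS5 with 1 scaling per array. Affymetrix Expression Console is the tool that the submitters' notes give, with no version. Present probe sets had a deposited detection p-value of at most 0.0490, and the authors' call was used as given. The series' value table held the same signals, within 0.00050%. No scanner intensities were used, and the authors' own background correction and summary over probes stand behind each signal. Conditions were taken from the labels. Gene symbols came from the platform annotation, in which 41091 probe sets had 1 symbol, 1801 several and 11721 none.

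Log2 ratios were computed without further normalization in Python 3.11.15 with numpy 2.4.6 and pandas 2.3.3, and plotted with matplotlib 3.10.9. Where a probe set was Absent on the dim array, the dim signal was set to no less than the lowest Present signal of its array. That signal was 148 in control and 159 in sorted cells. Where this raised the dim signal, the fold is a lower limit, and otherwise it is the observed ratio. Precision is limited by the number of arrays, and array run and condition cannot be told apart. The counting procedure was tested on simulated data only for planted ratios of 4-fold or more. Smaller ratios and false counts were not checked. The members, the gene lists and the rule for named genes were chosen with earlier results of these data known. Named were single-gene and multi-gene members past 2-fold, the extremes and the brightest of each subunit, those next to the limits, those Present on 1 array with the highest limits, genes with the widest range among their probe sets, and the paralogue, stalk, tunnel and 5S lists. RPL9, RPL22, FAU and RPS16 226131_s_at, the second RPS4X and RPL5 probe sets, RPS20 214003_x_at and the probe sets set beside RPL17 and RPL13A were named after their values had been seen. Alternatives were other scalings, the value table, a floor on dim signals, other detection rules, a 4-fold rule, subsets of probe sets and other summaries of a gene. Without replicates to set a spread, a ratio counted as moved beyond 0.33, the SD of the hybridisation spikes, and a count beyond 1.5 times.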

Additional observations from a re-analysis of the deposited data

How the results depend on the processing

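No paired analysis was possible because each condition has 1 array. The polyA spikes had a median log2 ratio of -0.48. Centred on them, the median was 0.38 for the single-gene large subunit, 0.52 for the single-gene small subunit and 0.53 for multi-gene probe sets. This shift is the same for each ratio and larger than 0.33, so all 51 named probe sets counted as moved by construction. Gene-specific single-gene probe sets only, 12 over both subunits, gave -0.51 for the large and -0.36 for the small subunit. The small subunit and multi-gene medians, both 0.05, lay on the other side of 0 with quantile normalization (-0.07 and -0.05), centred on probe sets Present on both arrays (-0.06 for both) and centred on the hybridisation spikes (-0.19 and -0.18), moves of less than 0.33. The 6 higher probe sets became 3 with quantile normalization, 1 when centred on the hybridisation spikes, 16 when centred on the polyA spikes, 0 with gene-specific probe sets only, 23 with no call required, 0 with an Absent call required on the other array and 1 at 4-fold. The 10 lower ones became 5 with gene-specific probe sets only, 4 with single-gene probe sets only, 29 with no call required, 4 with an Absent call required on the other array and 6 at 4-fold. With the scalings the lower count lay between 9 and 12. Probe sets Present in control cells numbered 18 when gene-specific and 58 when single-gene, and in sorted cells 14 and 59. In these counts gene-specific members are all those ending in _at, multi-gene ones included, whereas the subunit medians used single-gene ones. The dim signals of Absent probe sets limit what can be said, since 19 of the 81 members Present on neither array were lower and 17 higher at 2-fold or more.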

Other observations

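Among the 14 members ending in _at that were Present on both arrays, multi-gene ones included, 12 had a log2 ratio below 0, with a median of -0.36. Of the 12 single-gene ones 11 lay below 0, with a median of -0.44. Centred on the polyA spikes 6 of the 14 lay below 0. Over all 1198 probe sets of that ending Present on both arrays the median was 0.09. Over the 45 members ending in _x_at the median was 0.06, with 28 above 0, and over the 30 ending in _s_at it was -0.04, with 13 above 0. The members are not replicates, and this split was seen after the values were known and was not tested.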
